A study of Mus musculus with 5 samples.

Results

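The axon guidance genes are the semaphorins, ephrins, Slits and netrins together with the receptors that bind them. Members were the protein-coding genes of the counts table whose mouse symbol starts with Sema, Plxn, Slit, Robo, Ntn, Unc5, Efna or Efnb, or with Epha or Ephb and a digit, or is *Nrp1* or *Nrp2*, with the Slitrk genes left out. This rule, which uses no measured value, found 71 genes among the 30046 features counted, of which 37 are ligands and 32 are receptors or co-receptors. The remaining 2, *Unc50* and *Unc5cl*, match by their letters only and are not netrin receptors. The members were measured in 5 bulk RNA-seq libraries of GFP-high, tdTomato+ stromal cells sorted from mouse femurs at postnatal day 21, after tamoxifen at embryonic day 12.5. The 3 Dlx5CE-E12.5 libraries came from Cxcl12(GFP/+); Dlx5(CreER/+); R26R(tdTomato/+) mice, in which the pulse marks the fetal perichondrium. The 2 Fgfr3CE-E12.5 libraries came from Cxcl12(GFP/+); Fgfr3-iCreER; R26R(tdTomato/+) mice, in which it marks chondrocytes of the fetal cartilage. Every mouse thus carried 1 GFP copy at the Cxcl12 locus, tdTomato stayed on in the descendants of the pulsed cells, and cells of littermates were pooled by genotype. Dlx5CE-E12.5 libraries are numbered 1 to 3 and Fgfr3CE-E12.5 libraries 2 and 3, as in the labels.

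Guidance ligands and receptors were first described as cues that attract or repel growing axons, and they also act in blood vessels, immune cells and bone. Secreted class 3 semaphorins bind neuropilins, which signal through A-type plexins, whereas transmembrane class 4 semaphorins bind plexins directly. Slits bind Robo receptors, netrins bind *Dcc*, neogenin and the Unc5 receptors, and ephrins, which are tethered to the membrane, bind Eph receptor kinases on a neighbouring cell. In bone, *Sema3a* is known as a factor that restrains osteoclasts and favours osteoblasts, *Sema4d* as an osteoclast product that restrains osteoblasts, and ephrin-B2 with *Ephb4* as a pair acting between osteoclasts and osteoblasts.

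Total counts ranged from 22035650 to 32563758 in Dlx5CE-E12.5 cells and from 56355203 to 58166285 in Fgfr3CE-E12.5 cells, so that 3 counts, taken as the smallest detectable amount, corresponded to between 0.0516 and 0.136 CPM, a count relative to all counts of its library. Levels are given as CPM after TMM scaling, and folds as log2 fold changes of Fgfr3CE-E12.5 over Dlx5CE-E12.5 cells with their standard error. A call required that the adjusted p was below 0.05 and that the log2 fold change exceeded 1 in absolute value. The study's methods give the Dlx5CE-E12.5 libraries another sequencer and read length than the Fgfr3CE-E12.5 libraries, and these cannot be told apart from the lineage. The libraries also differed in markers of other cells. The summed CPM of 9 genes of Cxcl12-abundant reticular (CAR) stroma lay between 32770 and 34682 in the Dlx5CE-E12.5 libraries, against 13265 and 8712 in Fgfr3CE-E12.5 replicates 2 and 3, with 7 of the 9 higher in every Dlx5CE-E12.5 library. *Foxc1* on that list was called higher in Fgfr3CE-E12.5 cells (log2 fold change 2.82, adjusted p = 0.000134). The sum of 10 pan-leukocyte genes was 622, 561 and 494 in the Dlx5CE-E12.5 libraries and 1560 and 3421 in the Fgfr3CE-E12.5 libraries, with all 10 called higher in Fgfr3CE-E12.5 cells. All 8 neutrophil genes were called higher there as well, with sums of 2458 to 3062 against 6791 and 16753. Sums of 8 macrophage genes were 65.8 to 103 against 169 and 233, and sums of 8 osteoblast genes 3783 to 5335 against 7243 and 9706. The macrophage gene *Mrc1* went the other way, at 9.46, 12.15 and 7.28 CPM in the Dlx5CE-E12.5 libraries against 6.03 and 3.42. Of the osteoblast genes, 4 were called higher in Fgfr3CE-E12.5 cells, and *Phex* was called higher in Dlx5CE-E12.5 cells (log2 fold change -2.23, adjusted p = 0.00415). Sums of 7 chondrocyte genes were 125 to 133 against 3158 in replicate 2 and 420 in replicate 3, and *Acan* and *Col9a1*, which define chondrocytes, had at most 2 counts in any Dlx5CE-E12.5 library. *Sox9*, a transcription factor on the same list, made up most of the Dlx5CE-E12.5 sums and was higher there, at 124, 117 and 122 CPM against 96.8 and 53.7 (log2 fold change -0.69, adjusted p = 0.0536), without passing. Sums of 6 erythroid genes were higher in Dlx5CE-E12.5 cells, at 14515 to 29363 against 9046 and 13517, with 2 of the 6 called in that direction. Sums of 7 B-lineage genes (832 to 903 against 597 and 580) and of 7 Schwann and neural genes (266 to 291 against 191 and 179) were higher there too. *Ebf1* made up most of the B-lineage sums, at 698, 764 and 750 against 383 and 189 CPM, whereas 2 of the 5 tested were called higher in Fgfr3CE-E12.5 cells. *Ncam1* made up most of the Schwann and neural sums, at 253, 263 and 237 against 146 and 139 CPM. *Mbp* on that list was called higher in Fgfr3CE-E12.5 cells (log2 fold change 1.15, adjusted p = 0.0159). Sums of 6 mural genes overlapped, at 75.3 to 259 against 143 and 134, although 4 of the 5 tested were called higher in Fgfr3CE-E12.5 cells. *Rgs5* on that list was not called (log2 fold change -1.09, adjusted p = 0.182). *Myh11*, too low to be tested, was higher in every Dlx5CE-E12.5 library, at 5.71, 2.92 and 7.84 against 0.861 and 0.489 CPM. Sums of 10 endothelial genes overlapped between the lineages, at 31.0 to 56.3 against 43.3 and 59.7. The part of these cells in the results below was not tested.

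Of the 71 members, 29 had 10 CPM or more in 2 or more libraries and were tested, and 42 were lower. Among the 29, 9 were called higher in Dlx5CE-E12.5 cells and 5 higher in Fgfr3CE-E12.5 cells. The 9 were the ephrin *Efna5*, both neuropilins (*Nrp1* and *Nrp2*), the Slit receptors *Robo1* and *Robo2*, the netrin receptor *Unc5c*, the plexin *Plxnd1*, and the semaphorins *Sema5a* and *Sema6d*. The 5 were the semaphorins *Sema3a*, *Sema4a* and *Sema4d*, the netrin receptor *Unc5b* and the ephrin-B receptor *Ephb3*. Because these are bulk samples, fewer cells of a type and less RNA per cell cannot be told apart. The 9 members make 31.0% of those tested, where 13.1% of all 10088 genes tested were called higher in Dlx5CE-E12.5 cells. The 5 make 17.2%, next to 16.4% of all genes, so the share of members higher in Fgfr3CE-E12.5 cells was near the background. In both directions together, 29.5% of all genes were called. Of the 14 called, *Robo2* and *Unc5c* reached 10 CPM in 2 libraries only through the Dlx5CE-E12.5 libraries, and *Sema4d* and *Ephb3* only through the Fgfr3CE-E12.5 libraries, so these 4 were let in by the lineage in which they are high. The counts and medians of the members tested are therefore descriptions. The receptors and the ligands are given apart, with no test of one against the other. Of 15 receptors tested 6 were called higher in Dlx5CE-E12.5 cells and 2 in Fgfr3CE-E12.5 cells, with a median log2 fold change of -0.72. Of 13 ligands tested 3 were called in each direction, with a median of -0.19. Both stand beside the shares of all genes given above, 13.1% higher in Dlx5CE-E12.5 cells and 16.4% higher in Fgfr3CE-E12.5 cells. The median was -0.42 over the 29 members and 0.01 over all genes tested. The libraries of the lineages did not overlap for 23 of the 29 members, where 68.9% of all genes tested did not overlap.

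**Figure D1:**
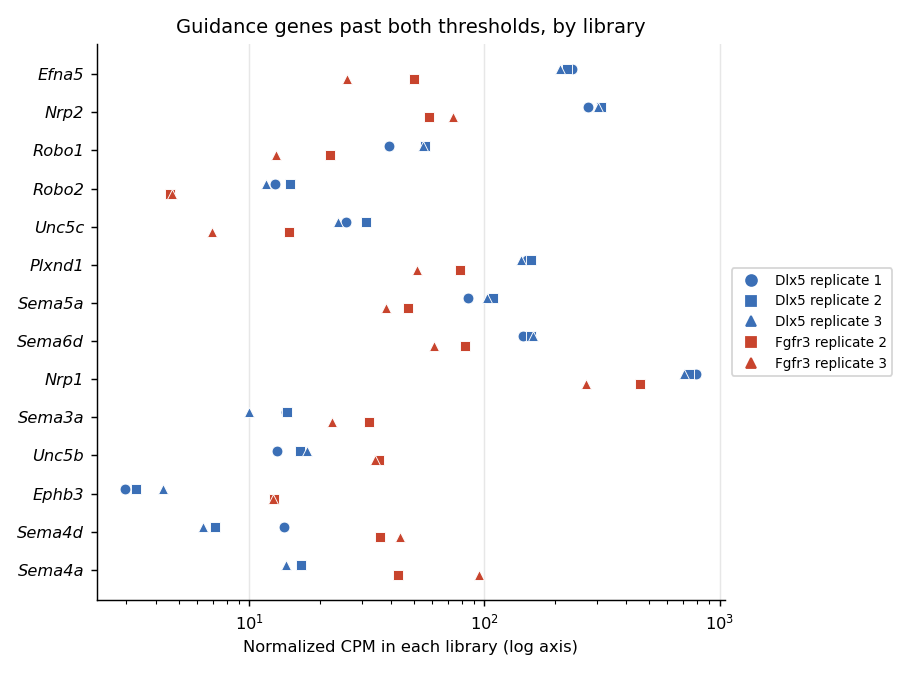
Normalized CPM (log axis) of the 14 called guidance genes in each of the 5 libraries, ordered by log2 fold change. For each gene both Fgfr3CE-E12.5 libraries (red) lie on one side of the 3 Dlx5CE-E12.5 libraries (blue), and Fgfr3CE-E12.5 replicates 2 and 3 lie well apart for Sema4a, at 42.8 and 95.1.

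The number of members called higher in Dlx5CE-E12.5 cells changed with the threshold, with the treatment of gene length, with 1 library and with the scaling. Tested against a 2-fold change (edgeR's glmTreat) in place of a fold threshold beside the test, 2 members were called, which is 6.9% of the members against 6.53% of all genes, so the share was then near the background. The 29 members tested have a median exonic length of 7679 bases, against 4663 bases over the protein-coding genes tested, and the 9 called higher in Dlx5CE-E12.5 cells have a median of 11842 bases. With the trend of fold change on exonic length removed, 4 members were called higher in Dlx5CE-E12.5 cells, which is 13.8% of the members against 11.6% of all genes. These were 3 of the 9, together with *Epha2*. The receptors tested have a median exonic length of 9054 bases and the ligands tested one of 5406 bases. With the length trend removed, 3 receptors were called higher in Dlx5CE-E12.5 cells in place of 6. Without Fgfr3CE-E12.5 replicate 3, the library with the higher leukocyte and lower CAR sums, 5 were called, or 17.2% against 11.1%, and 3 of the receptors in place of 6. Scaling by library size alone, which moved the median of all genes from 0.01 to 0.22 and the share of all calls that were higher in Fgfr3CE-E12.5 cells from 55.6% to 66.3%, also left 5, where 1009 of all genes were called in that direction. The calls of *Efna5*, *Nrp2*, *Sema4a*, *Sema4d* and *Ephb3* were the 5 of the 14 that held under all 18 alternatives, which for *Sema4d* and *Ephb3* carries the limit of the filter given above.

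**Figure D2:**
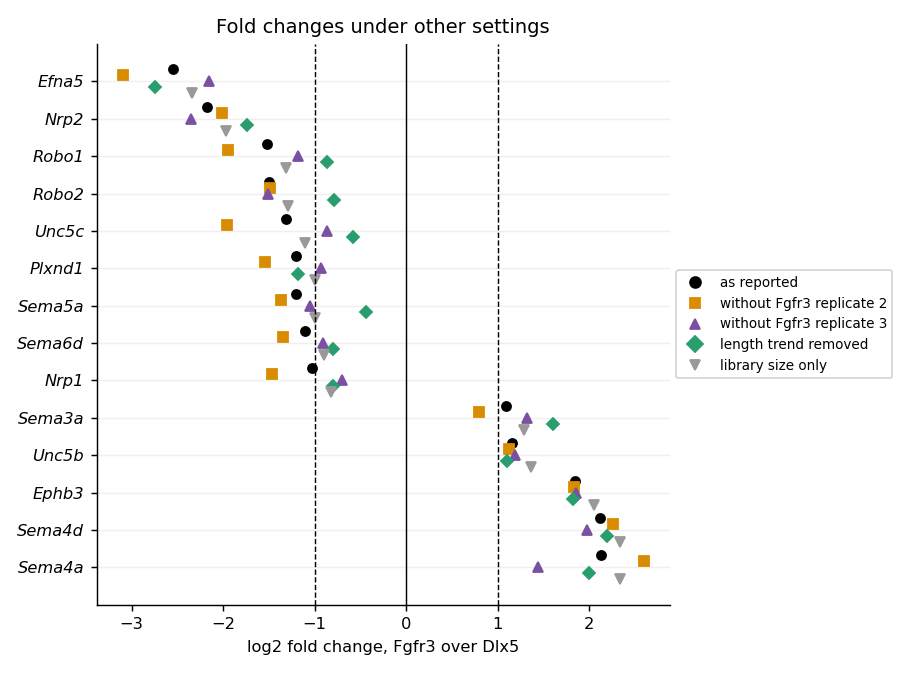
Log2 fold changes (Fgfr3CE-E12.5 over Dlx5CE-E12.5 cells) of the 14 called genes as reported and under 4 other settings, with dashed lines at -1 and 1. Removal of the length trend (green) brings Robo1, Robo2, Unc5c, Sema5a, Sema6d and Nrp1 inside the dashed lines. Efna5, Nrp2, Unc5b, Ephb3, Sema4d and Sema4a stay outside them under each setting shown.

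The 5 genes that held lie on GRCm38, the build mm10 names, as follows: *Efna5* (ENSMUSG00000048915) at chr17:62604184-62881317, *Nrp2* (ENSMUSG00000025969) at chr1:62703285-62818695, *Ephb3* (ENSMUSG00000005958) at chr16:21204755-21223305, *Sema4a* (ENSMUSG00000028064) at chr3:88435959-88461182 and *Sema4d* (ENSMUSG00000021451) at chr13:51685529-51793747. To set the sequence at the start of these genes beside their levels, the 250 bases upstream of the RefSeq start are shown for the genes that kept their call throughout and whose RefSeq start lies within 500 bases of the start in the GENCODE annotation, which leaves out *Sema4d*, at a distance of 37064 bases. They are read 5′ to 3′ on the gene's strand in GRCm38.p6, and capitals mark CG dinucleotides, which are the same on both strands. The first 2 genes were higher in Dlx5CE-E12.5 cells and the other two in Fgfr3CE-E12.5 cells.
Efna5, chr17:62881318-62881567, minus strand: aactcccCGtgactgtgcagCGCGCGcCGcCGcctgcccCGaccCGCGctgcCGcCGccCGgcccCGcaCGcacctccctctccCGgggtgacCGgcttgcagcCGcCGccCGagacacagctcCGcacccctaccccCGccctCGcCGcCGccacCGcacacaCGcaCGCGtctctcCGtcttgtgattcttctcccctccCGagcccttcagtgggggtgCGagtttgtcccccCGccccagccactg
Nrp2, chr1:62703067-62703316, plus strand: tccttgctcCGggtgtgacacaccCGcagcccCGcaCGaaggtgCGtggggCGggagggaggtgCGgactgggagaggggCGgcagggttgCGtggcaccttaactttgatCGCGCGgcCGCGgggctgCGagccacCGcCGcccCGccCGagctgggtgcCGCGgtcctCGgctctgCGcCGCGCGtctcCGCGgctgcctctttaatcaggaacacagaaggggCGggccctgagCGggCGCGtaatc
Ephb3, chr16:21204545-21204794, plus strand: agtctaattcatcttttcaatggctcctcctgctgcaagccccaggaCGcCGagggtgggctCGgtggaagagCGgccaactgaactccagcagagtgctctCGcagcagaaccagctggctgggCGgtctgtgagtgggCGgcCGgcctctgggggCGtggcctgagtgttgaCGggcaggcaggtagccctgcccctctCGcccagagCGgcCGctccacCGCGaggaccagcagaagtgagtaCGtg
Sema4a, chr3:88461183-88461432, minus strand: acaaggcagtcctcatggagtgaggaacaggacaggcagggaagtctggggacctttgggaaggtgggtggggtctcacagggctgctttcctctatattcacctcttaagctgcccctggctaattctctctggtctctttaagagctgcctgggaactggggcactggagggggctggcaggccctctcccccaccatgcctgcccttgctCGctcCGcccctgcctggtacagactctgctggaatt
*Efna5* and *Nrp2* hold 32 CG dinucleotides each, *Ephb3* 16 and *Sema4a* 2, where the median of 32851 mouse promoters of this length is 6. At least 32 are found in 4.58% of those promoters, at least 16 in 25.4% and at least 2 in 81.2%. CG dinucleotides occur in 92.1% of all promoters. Among the other called members with a start within 500 bases, *Unc5b*, higher in Fgfr3CE-E12.5 cells, holds 27. Those higher in Dlx5CE-E12.5 cells hold 9 (*Sema6d*), 11 (*Nrp1*), 14 (*Robo2*), 16 (*Plxnd1*), 17 (*Sema5a*) and 23 (*Unc5c*). The numbers thus overlap between the directions of change. The core motif of RUNX factors (TGTGGT, either strand) was found in 1 of the 11 called members with a start within 500 bases, *Unc5c*, and in 14.0% of all promoters. A match is a description of the letters only.

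Among the semaphorins, 3 of the 7 tested were called higher in Fgfr3CE-E12.5 cells and 2 in Dlx5CE-E12.5 cells, of 20 in all. The CPM of *Sema4a*, a transmembrane class 4 semaphorin known from dendritic and T cells, was 16.5, 16.5 and 14.3 in Dlx5CE-E12.5 replicates 1 to 3 and 42.8 and 95.1 in Fgfr3CE-E12.5 replicates 2 and 3. Both Fgfr3CE-E12.5 libraries were thus above the 3 others, and replicate 3 was the highest. The log2 fold change was 2.13 (SE 0.32, adjusted p = 0.00181), and it was 1.44 without replicate 3. *Sema4a* was 2.22 times as high in replicate 3 as in replicate 2, where the pan-leukocyte sum was 2.19 times as high. For *Sema4d*, a class 4 semaphorin made by T cells and osteoclasts, the CPM was 13.99, 7.11 and 6.32 in Dlx5CE-E12.5 cells and 36.05 and 43.8 in Fgfr3CE-E12.5 cells. Dlx5CE-E12.5 replicate 1 stood above the other two but below both Fgfr3CE-E12.5 libraries, which lay 1.22-fold apart. The log2 fold change of *Sema4d* was 2.12 (SE 0.35, adjusted p = 0.00274), close to that of *Sema4a*. The sum of 6 osteoclast genes was 189 to 195 against 247 and 248, and *Ocstamp* and *Dcstamp*, genes of osteoclast fusion, were at 0 counts in the Dlx5CE-E12.5 libraries and between 144 and 235 in the Fgfr3CE-E12.5 libraries. *Ctsk*, the most abundant gene of that list, did not pass, at 176, 179 and 175 against 174 and 169 CPM (log2 fold change -0.05, adjusted p = 0.768), and *Calcr* had 0 counts in every library but Fgfr3CE-E12.5 replicate 2, with 18. The part of osteoclasts in the level of *Sema4d* was not tested. The third class 4 gene, *Sema4c*, overlapped between the lineages, with 36.01, 45.1 and 76.2 against 48.3 and 35.9 CPM and an adjusted p of 0.453.

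*Sema3a*, the secreted semaphorin with a known role in bone mass, was measured at 14.4, 14.4 and 9.98 CPM in Dlx5CE-E12.5 cells and at 32.3 and 22.5 CPM in Fgfr3CE-E12.5 cells. The resulting log2 fold change of 1.08 (SE 0.25, adjusted p = 0.0116) ended under the threshold without Fgfr3CE-E12.5 replicate 2, at 0.80 with an adjusted p of 0.0644, and without Dlx5CE-E12.5 replicate 3, at 0.93. *Sema3a* was the 1 class 3 semaphorin of 7 that could be tested. *Sema5a* and *Sema6d*, transmembrane semaphorins of classes 5 and 6, were lower in Fgfr3CE-E12.5 cells. The CPM of *Sema6d* was 146, 158 and 160.4 in Dlx5CE-E12.5 cells against 82.7 and 60.96, a log2 fold change of -1.11 (SE 0.17, adjusted p = 0.002). *Sema5a* had 85.3, 108 and 103 CPM against 47.5 and 38.2, a log2 fold change of -1.20 (SE 0.17, adjusted p = 0.00162). In both genes every Dlx5CE-E12.5 library was above both Fgfr3CE-E12.5 libraries. With the length trend removed their log2 fold changes were -0.80 for *Sema6d* and -0.44 for *Sema5a*, so neither call held, and *Sema6d* was at -0.90 without Fgfr3CE-E12.5 replicate 3. *Sema7a*, the semaphorin anchored to the membrane by a lipid, was at 14.5, 21.7 and 18.2 against 29.5 and 16.6 CPM and was not called (adjusted p = 0.363).

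**Figure D3:**
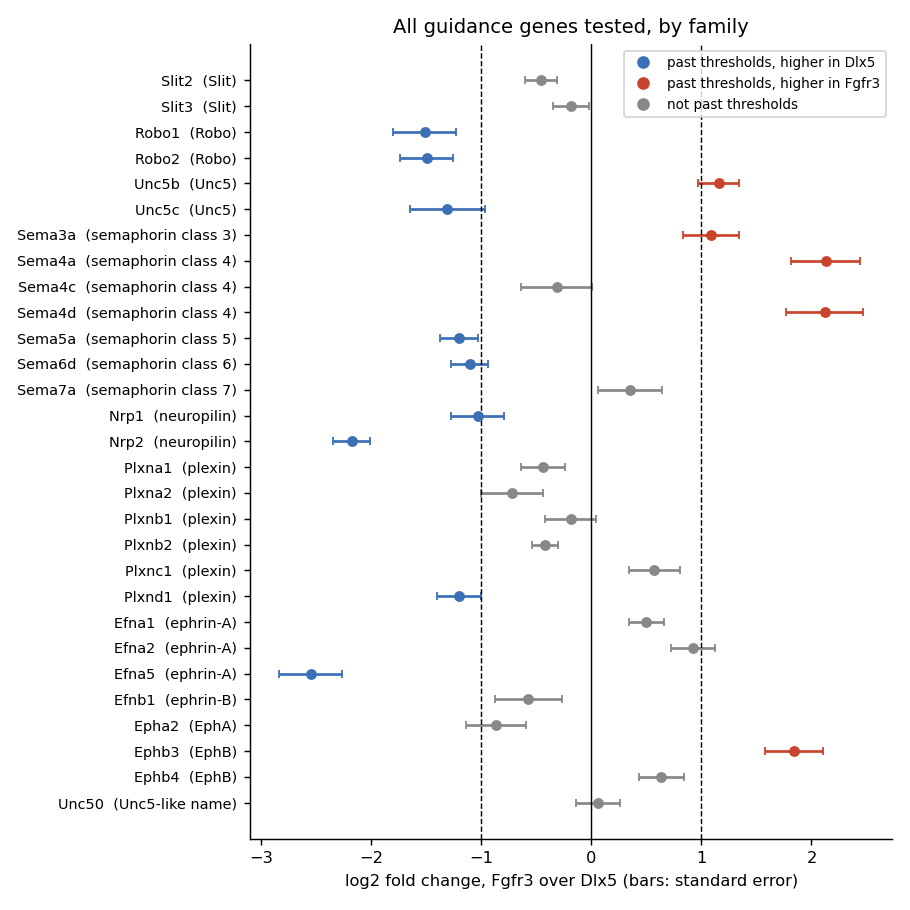
Log2 fold changes (Fgfr3CE-E12.5 over Dlx5CE-E12.5 cells) of all 29 guidance genes tested, grouped by family, with standard errors as bars and dashed lines at -1 and 1. Both neuropilins and both Robo receptors tested lie at or left of -1, the netrin receptors Unc5b and Unc5c lie on opposite sides, and Sema4a and Sema4d lie right of 1 while Sema5a and Sema6d lie left of -1.

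Both neuropilins, the receptors that hold class 3 semaphorins and forms of VEGF, were higher in Dlx5CE-E12.5 cells. *Nrp2* had 275, 312 and 303 CPM in the Dlx5CE-E12.5 libraries and 57.99 and 73.3 CPM in the Fgfr3CE-E12.5 libraries. The groups were far apart, by a log2 fold change of -2.18 (SE 0.17, adjusted p = 0.000132), which ranged from -2.36 to -1.74 over the 18 alternatives. *Nrp1*, the receptor best studied in axons and vessels, had 797, 741 and 705 CPM against 459.7 and 272. The groups did not overlap, but Fgfr3CE-E12.5 replicate 2 was 1.69 times as high as replicate 3. The log2 fold change of *Nrp1*, -1.03 (SE 0.24, adjusted p = 0.0114), was just past the threshold, and it was -0.70 without Fgfr3CE-E12.5 replicate 3 and -0.98 without Dlx5CE-E12.5 replicate 1. *Nrp1* lost its call under 7 of the 18 alternatives and kept its direction in all of them.

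Of the plexins, the signalling receptors of the semaphorins, 6 of 9 were tested and 1 was called. *Plxnd1*, best known as the receptor of *Sema3e* in vessels, had 151, 157 and 144 CPM in Dlx5CE-E12.5 cells and 79.01 and 51.6 CPM in Fgfr3CE-E12.5 cells, with a log2 fold change of -1.21 (SE 0.20, adjusted p = 0.00286). The level of *Plxnd1* was above both Fgfr3CE-E12.5 libraries in every Dlx5CE-E12.5 library, and its log2 fold change was -0.93 without Fgfr3CE-E12.5 replicate 3. *Plxnb2*, a receptor of *Sema4d* and *Sema4c*, differed little but evenly, at 119, 122 and 125 against 89.9 and 91.95 CPM (log2 fold change -0.42, SE 0.12, adjusted p = 0.0244), and did not reach the fold threshold. *Plxnb1*, the high-affinity receptor of *Sema4d*, overlapped between the lineages (log2 fold change -0.19, adjusted p = 0.537), so the difference in *Sema4d* was not accompanied by a called difference in either B-type plexin tested. *Plxna2*, which binds class 6 semaphorins, ranged widely within each lineage, from 242 to 361 CPM and from 132 to 231 CPM, and did not pass (log2 fold change -0.72, adjusted p = 0.0706). *Plxna1* (log2 fold change -0.44, adjusted p = 0.11) and *Plxnc1*, the receptor of *Sema7a* (log2 fold change 0.57, adjusted p = 0.0789), did not pass either. Of the exonic length of *Plxna1*, 10.7% lies opposite an antisense gene.

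The Slit receptors differed while the Slits did not pass the thresholds. The CPM of *Robo1* was 39.1, 56.04 and 54.96 in Dlx5CE-E12.5 cells and 22.02 and 12.9 in Fgfr3CE-E12.5 cells, which gave a log2 fold change of -1.52 (SE 0.28, adjusted p = 0.00477). For *Robo2* the Fgfr3CE-E12.5 libraries were close together, with 12.8, 14.9 and 11.8 CPM against 4.62 and 4.702 and a log2 fold change of -1.50 (SE 0.24, adjusted p = 0.00251). For both receptors, all 3 Dlx5CE-E12.5 libraries were above both Fgfr3CE-E12.5 libraries. *Robo1* and *Robo2* kept their calls when any single library was left out, but with the length trend removed their log2 fold changes were -0.87 and -0.79. *Slit2* had 95.8, 121 and 104 CPM against 76.7 and 79.00, a log2 fold change of -0.46 (SE 0.15, adjusted p = 0.0374) that stayed under the fold threshold and became 0.55 (adjusted p = 0.0392) with the length trend removed, so no direction can be given for it. *Slit3*, known as a bone-cell factor that acts on vessels, overlapped between the lineages, at 118, 101 and 109 against 82.4 and 109.9 CPM (log2 fold change -0.19, adjusted p = 0.389). *Robo4*, the endothelial Robo, had 42, 33 and 24 counts against 32 and 144, and *Robo3* had no more than 15 counts in any library.

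The netrin receptors *Unc5b* and *Unc5c* differed in opposite directions. *Unc5b*, the Unc5 receptor of vessels and myeloid cells, had 13.1, 16.4 and 17.5 CPM in Dlx5CE-E12.5 cells and 35.7 and 34.2 CPM in Fgfr3CE-E12.5 cells. This gave a log2 fold change of 1.16 (SE 0.19, adjusted p = 0.00244), with both Fgfr3CE-E12.5 libraries above all others and close together. With a trend on GC content removed it was 0.96, just under the threshold. *Unc5c* had 25.9, 31.5 and 23.8 CPM against 14.8 and 6.96, a log2 fold change of -1.31 (SE 0.34, adjusted p = 0.0173). The Fgfr3CE-E12.5 libraries of *Unc5c* lay 2.13-fold apart, and its call was lost without Fgfr3CE-E12.5 replicate 3 (-0.87), without Dlx5CE-E12.5 replicate 2 (-1.19, adjusted p = 0.0541) and with the length trend removed (-0.59). Among the receptors outside the rule, *Dcc* was called higher in Dlx5CE-E12.5 cells (log2 fold change -1.43, SE 0.40, adjusted p = 0.0234), whereas neogenin (*Neo1*) was at 67.9, 91.7 and 85.2 against 99.1 and 71.7 CPM with a log2 fold change of 0.07 (adjusted p = 0.801). None of the 4 netrins and 2 netrin-G genes reached the filter, and their counts are given with the low members.

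Among the ephrins, *Efna5* showed the largest fold of the 29 members tested. The CPM of *Efna5*, an ephrin held in the membrane by a lipid anchor, was 235, 225 and 209.9 in the Dlx5CE-E12.5 libraries and 50.04 and 26.1 in the Fgfr3CE-E12.5 libraries. The 3 Dlx5CE-E12.5 values were close together and far above the others, while Fgfr3CE-E12.5 replicate 2 was 1.92 times as high as replicate 3. The log2 fold change was -2.55 (SE 0.29, adjusted p = 0.000577), a 5.87-fold higher level in Dlx5CE-E12.5 cells, and it ranged from -3.10 to -2.16 over the 18 alternatives. The other two A-type ephrins tested had positive log2 fold changes under the fold threshold. *Efna2* had 10.02, 11.2 and 10.5 CPM against 21.9 and 18.05 (log2 fold change 0.92, SE 0.20, adjusted p = 0.00862). *Efna1* had 21.4, 22.8 and 20.8 CPM against 31.3 and 29.96 (log2 fold change 0.50, SE 0.15, adjusted p = 0.033). In both, each Fgfr3CE-E12.5 library was above each Dlx5CE-E12.5 library. *Efnb1*, the one B-type ephrin tested, overlapped between the lineages, at 84.7, 122 and 175 against 98.04 and 72.9 CPM (log2 fold change -0.57, adjusted p = 0.163).

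Of the 13 Eph receptors, 3 were tested and *Ephb3* was called. *Ephb3* had 2.97, 3.296 and 4.295 CPM in Dlx5CE-E12.5 cells and 12.7 and 12.6 CPM in Fgfr3CE-E12.5 cells, which is a log2 fold change of 1.84 (SE 0.26, adjusted p = 0.0015). The Fgfr3CE-E12.5 libraries of *Ephb3* were nearly equal, and the log2 fold change stayed between 1.69 and 2.06 over the alternatives. *Ephb4*, the ephrin-B2 receptor of veins and osteoblasts, was at 36.2, 44.1 and 57.4 against 73.1 and 69.5 CPM (log2 fold change 0.64, SE 0.20, adjusted p = 0.0382). *Epha2* was above both Fgfr3CE-E12.5 libraries in all 3 Dlx5CE-E12.5 libraries, at 14.97, 21.9 and 25.3 against 12.2 and 10.5 CPM, but missed the fold threshold (log2 fold change -0.87, SE 0.27, adjusted p = 0.0332). It passed under 5 of the 18 alternatives, among them the removal of the length trend, at -1.06. *Efnb2*, the partner of *Ephb4*, was low, with 116, 99 and 109 counts in Dlx5CE-E12.5 cells and 498 and 403 in Fgfr3CE-E12.5 cells.

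The 42 lower members were looked at by their counts, and 26 of them in the same fit run on the 13225 genes that had 1 CPM or more in 2 or more libraries. Of these 26, 2 were called higher in Dlx5CE-E12.5 cells, 4 higher in Fgfr3CE-E12.5 cells and 20 were not called. In that fit 12.9% of all genes were called higher in Dlx5CE-E12.5 cells and 16.6% higher in Fgfr3CE-E12.5 cells, and of all 55 members in it 11 and 9 were. Of the 6 called, *Ntn1*, *Ntn4*, *Sema6b* and *Sema6c* passed that filter only through the Fgfr3CE-E12.5 libraries and *Epha6* only through the Dlx5CE-E12.5 libraries. Members that passed only through the lineage in which they are high were let in by it, so these counts and their p-values describe them and no more. *Ntn4*, a basement membrane netrin, had 0, 1 and 2 counts in Dlx5CE-E12.5 replicates 1 to 3 and 688 and 476 in the Fgfr3CE-E12.5 libraries, so that it was at or under the 3-count floor in every Dlx5CE-E12.5 library. Against that floor, taken in each library, *Ntn4* was at least 78.2-fold higher in Fgfr3CE-E12.5 cells (adjusted p = 0.000287). *Ntn1*, the founding netrin, had 31, 18 and 14 counts against 118 and 217 and a log2 fold change of 1.70 (SE 0.54, adjusted p = 0.0383). The call of *Ntn1* was lost under 5 of 12 alternatives, among them without Dlx5CE-E12.5 replicate 2 or 3 or Fgfr3CE-E12.5 replicate 3. *Ntn3* was not called, with 63, 52 and 146 counts against 290 and 376 (adjusted p = 0.369).

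**Figure D4:**
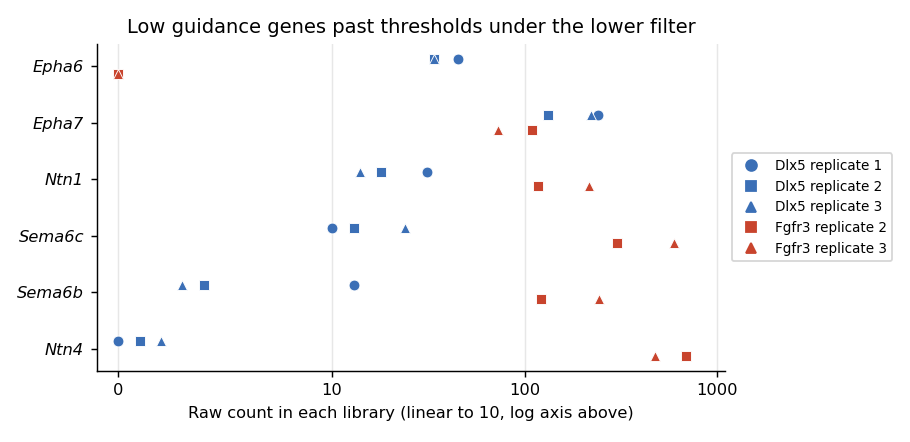
Raw counts in each of the 5 libraries (axis linear up to 10 and logarithmic above) of the 6 low members called in the fit with the lower filter. Epha6 is at 0 in both Fgfr3CE-E12.5 libraries (red), and Ntn4 is at 0 to 2 in the Dlx5CE-E12.5 libraries (blue). The counts are not scaled for depth, which was larger in the Fgfr3CE-E12.5 libraries.

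A pair of class 6 semaphorins was called against the direction of *Sema6d*. *Sema6c* had 10, 13 and 24 counts in Dlx5CE-E12.5 cells and 304 and 599 in Fgfr3CE-E12.5 cells, which is a log2 fold change of 3.49 (SE 0.56, adjusted p = 0.0028). *Sema6b* had 13, 4 and 3 counts against 122 and 244, a log2 fold change of 3.51 (SE 0.69, adjusted p = 0.00639). In Fgfr3CE-E12.5 replicate 3, *Sema6c* was 1.91 times and *Sema6b* 1.94 times as high in CPM as in replicate 2. The EphA receptors *Epha6* and *Epha7* were called higher in Dlx5CE-E12.5 cells. *Epha7* had 241, 133 and 221 counts in Dlx5CE-E12.5 cells and 109 and 73 in the deeper Fgfr3CE-E12.5 libraries, a log2 fold change of -2.41 (SE 0.38, adjusted p = 0.00265). *Epha6* had 45, 34 and 34 counts against 0 in both Fgfr3CE-E12.5 libraries, which makes it at least 30.7-fold lower there against the 3-count floor (adjusted p = 0.00156). Of its exonic length 2.0% lies opposite an antisense gene.

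Among the 20 low members that were fitted and not called, the log2 fold changes ran from -1.39 for *Sema4g* to 2.07 for *Ephb1*. *Sema3d* had 0, 46 and 17 counts against 214 and 257 and *Ephb1* had 1, 7 and 15 against 96 and 72, with adjusted p-values of 0.213 and 0.104. *Unc5a*, at 31, 26 and 8 counts against 156 and 149, had an adjusted p of 0.0927, and *Unc5cl* one of 0.0508. *Epha1*, *Epha3*, *Epha4*, *Sema3c*, *Sema4b* and *Sema4g* had negative log2 fold changes, with adjusted p-values from 0.0717 to 0.383. *Efnb2* (adjusted p = 0.0816), *Ephb6* and *Ntn3* had positive ones, and *Efna4*, *Efnb3*, *Ephb2*, *Plxna3*, *Robo4*, *Sema3b* and *Sema6a* lay between -0.10 and 0.22. The 16 members under both filters are given by count only. *Epha8* had 0 counts in every Dlx5CE-E12.5 library and 28 and 36 in the Fgfr3CE-E12.5 libraries, at least 4.28-fold higher against the floor. *Sema3f*, with 0, 0 and 4 counts against 49 and 81, *Sema4f*, with 0, 0 and 4 against 30 and 138, and *Slit1*, with 0, 4 and 1 against 29 and 45, were seen mainly in the Fgfr3CE-E12.5 libraries. *Efna3* had 7, 11 and 7 counts against 73 and 40, and *Ntn5* had 1, 0 and 0 against 7 and 25, with 23.4% of its exonic length opposite another gene. *Epha5* had 56 counts in Fgfr3CE-E12.5 replicate 2 and 0 in replicate 3. *Sema3e*, the ligand of *Plxnd1*, had 0, 16 and 12 counts against 7 and 0. *Ntng1*, *Ntng2*, *Plxna4*, *Plxnb3*, *Robo3*, *Sema3g*, *Sema5b* and *Unc5d* had at most 45 counts in any library.

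Compared per exonic length, as TPM, which scales each count by the length of its gene and then by the library, *Nrp1* was the most abundant guidance gene of the Dlx5CE-E12.5 cells at 242 ± 15.7 (SD, n = 3), apart from *Efna5* at 176 ± 12.9. In that order *Unc50* at 138 ± 33.6, *Efnb1* at 117 ± 41.9, *Nrp2* at 79.6 ± 9.04 and *Plxnd1* at 65.5 ± 5.98 followed, and each of these overlapped with its neighbour. In Fgfr3CE-E12.5 cells *Unc50*, which is no netrin receptor, came first at 163 ± 5.68 (SD, n = 2), overlapping with *Nrp1* at 137 ± 57.7 and followed by *Efnb1* at 90.1 ± 24.2. The ranges of the next, *Efna1* at 60.5 ± 5.62, *Slit3* at 56.95 ± 7.98, *Ephb4* at 55.6 ± 5.49 and *Sema4a* at 45.3 ± 21.9, overlapped from each to the next. *Efna5* went from the 2nd place in Dlx5CE-E12.5 cells to the 10th in Fgfr3CE-E12.5 cells, at 34.6 ± 17.3, and *Sema4a* from the 22nd to the 7th.

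**Figure D5:**
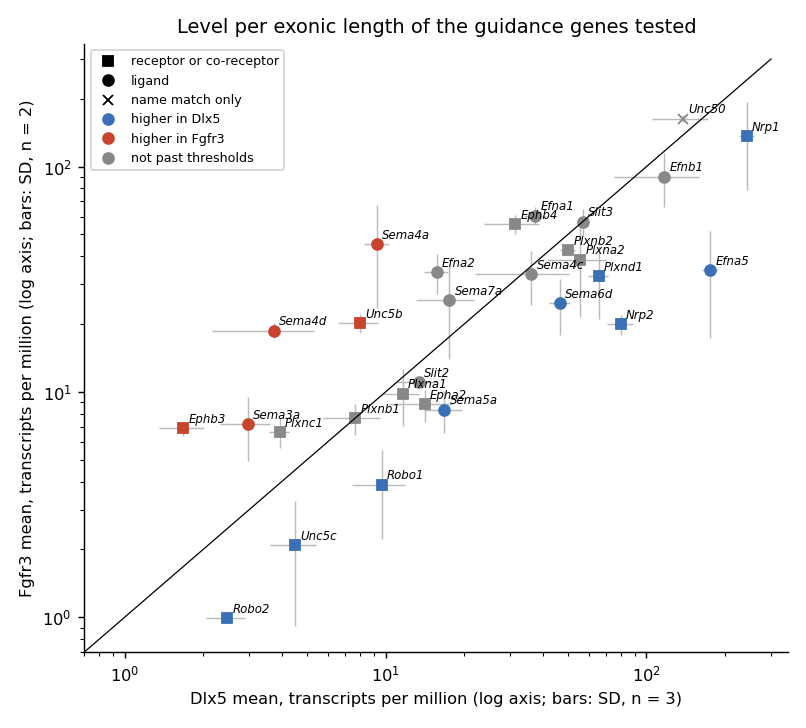
Mean level per exonic length (TPM, log axes) of the 29 tested members in Dlx5CE-E12.5 cells (x axis, n = 3) and Fgfr3CE-E12.5 cells (y axis, n = 2), with SDs as bars and a line of equal level. Nrp1 lies at the upper right and below the line, Efna5 and Nrp2 lie furthest below it, and Sema4a, Sema4d and Ephb3 lie furthest above it.

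Set side by side as ligands and receptors, the level of *Sema3a* was 2.96 ± 0.645 TPM in Dlx5CE-E12.5 cells and 7.200 ± 2.26 in Fgfr3CE-E12.5 cells, beside its neuropilin, *Nrp1*, at 242 ± 15.7 and 137 ± 57.7. For *Sema4d* the level was 3.73 ± 1.58 in Dlx5CE-E12.5 cells and 18.7 ± 1.41 in Fgfr3CE-E12.5 cells, beside *Plxnb1* at 7.64 ± 1.88 and 7.63 ± 1.18 and *Plxnb2* at 50.01 ± 3.197 and 42.6 ± 1.998. For the Slits, *Slit3* was at 56.99 ± 1.91 and 56.95 ± 7.98, whereas *Robo1* was at 9.65 ± 2.196 and 3.87 ± 1.65 and *Robo2* at 2.47 ± 0.425 and 0.991 ± 0.0496. For the ephrins, *Efnb1* exceeded each B-type Eph receptor tested in both lineages, and *Ephb4*, at 31.4 ± 7.43 and 55.6 ± 5.49, was the highest of those receptors.

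The partners and relays of these receptors were read from a list of 55 genes, of which 41 were tested, 10 were called higher in Dlx5CE-E12.5 cells and 10 higher in Fgfr3CE-E12.5 cells. Each makes 24.4% of those tested, beside 13.1% and 16.4% of all genes. The median log2 fold change of the 41 was 0.20, beside 0.01 over all genes tested. With the length trend removed, 5 were called higher in Dlx5CE-E12.5 cells, or 12.2% against 11.6% of all genes, which is near the background. The largest decrease from Dlx5CE-E12.5 to Fgfr3CE-E12.5 cells was that of *Dpysl2* (CRMP2), a relay of *Sema3a* signalling to microtubules, at 221, 226 and 207 against 37.6 and 30.5 CPM (log2 fold change -2.68, SE 0.16, adjusted p = 5.48e-05). It was followed by the neogenin ligand *Rgma* (-2.26), *Mical3* (-2.01), a relative of the plexin effector *Mical1*, and *Srgap3* (-1.99), of the Slit-Robo GTPase-activating proteins, with adjusted p-values of 0.00568, 0.00163 and 0.00459. In the other direction *Nck2*, an adaptor of Eph receptors, had 16, 13 and 17 counts in Dlx5CE-E12.5 cells and 3307 and 2958 in Fgfr3CE-E12.5 cells (log2 fold change 6.38, SE 0.23, adjusted p = 3.4e-05). Its relative *Nck1* was at -0.42 (adjusted p = 0.0461). The kinase *Fyn* (4.25), the Slit-binding glypican *Gpc1* (4.01) and the plexin target *Rras* (3.01) followed, with adjusted p-values of 6.06e-05, 4.28e-05 and 5.81e-05. *Nck2*, *Fyn* and *Rras* were under 10 CPM in every Dlx5CE-E12.5 library, and *Rgma* and *Srgap3* in every Fgfr3CE-E12.5 library. They were thus tested only through the lineage in which they are high, so the shares and p-values of the partners are descriptions. Of the exonic length of *Gpc1*, 18.9% lies opposite *Ankmy1*, so its reads are uncertain without strand.

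The Fgfr3CE-E12.5 libraries also differed from each other along these genes. Of the 9 members called higher in Dlx5CE-E12.5 cells, 7 were higher in Fgfr3CE-E12.5 replicate 2 than in replicate 3, where the CAR sum was 1.52 times as high in replicate 2. *Nrp2* and *Robo2* were the other two, with ratios of replicate 2 over replicate 3 of 0.792 and 0.982. The same share was not counted over all genes called higher in Dlx5CE-E12.5 cells, so it cannot be said to be particular to the members. Of the 5 called higher in Fgfr3CE-E12.5 cells, *Sema3a*, *Unc5b* and *Ephb3* were higher in replicate 2 and *Sema4a* and *Sema4d* in replicate 3. Among the low members, *Ntn4* was 1.49 times as high in replicate 2, *Ntn1* was 1.79 times as high in replicate 3, and *Robo4* was 4.37 times as high there. The sum of chondrocyte markers was 7.52 times as high in replicate 2. The part of these cells in the members' levels was not tested.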

How the data were processed

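Complementary DNA came from a low-input SMART-Seq kit and was made into libraries by Nextera XT. Reads were aligned to mm10 by the authors, with TopHat2 2.0.13 and Bowtie2 2.2.1, and they deposited raw counts per gene, with no normalization. The submitters' processing notes name HTSeq among the tools, and the strand setting is not given in the sources used here. A depth-scaled table and a regularized-log table were not used. According to the methods, Dlx5CE-E12.5 and Fgfr3CE-E12.5 libraries were sequenced on different sequencers, whereas the labels name a single one.

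Gene types, symbols, coordinates and exonic lengths came from GENCODE M21, which holds 29965 of the gene identifiers and lacks 76. Every pair of libraries differed by more than the sampling noise, so none was a copy of another. This does not show that they came from different cell pools. The study calls the libraries biologically independent samples of pooled cells. Nothing used here says which mice went into which library, so p-values measure the spread between these libraries, which may in part be technical. The 3-count floor covers counting error only, since reads carried no molecular identifiers. The quasi-likelihood test of edgeR 4.0.16 (R 4.3.3, TMM, no covariates) was run on the counts of protein-coding genes and 5 reporter sequences that had 10 CPM or more in 2 or more libraries, and p-values were adjusted over all 10088 by the Benjamini-Hochberg method. The SE is the absolute log2 fold change divided by the square root of F. Members under this filter were fitted with all 13225 genes that had 1 CPM or more in 2 or more libraries. Where every library of a lineage had at most 3 counts, the fold is a lower bound against 3 counts in each library. TPM was computed from counts and exonic lengths. Promoter sequences are those of RefSeq on GRCm38.p6, in which all 14 called members matched. Overlaps with other genes were taken from exons on either strand.

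The members and lists were chosen with earlier results of these data known. The text names every member, and of the partner genes the 4 with the largest change in each direction among those called, besides the netrin receptors Dcc and Neo1, and Nck1, which was named after its values were seen. On counts simulated for this comparison with 200 of 10088 genes changed at an absolute log2 fold change of 2, 198 of the 200 and 11 unchanged genes were called. The simulation held no true folds near the threshold of 1. Its share of changed genes was far below the 29.5% called in the data, so it does not cover those conditions. The alternatives were DESeq2 size factors, library size only, edgeR's exact test, the DESeq2 1.42.0 Wald test, other filters, all features, other fold thresholds, a replicate block, leaving out each library, and removal of trends on GC content and length. The count of receptors under these alternatives was added after seeing the data.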

Additional observations from a re-analysis of the deposited data

Results flagged for a closer look

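The gene Plxna4os1, whose symbol starts with Plxn but which is annotated as non-coding and was therefore no member, had 0, 0 and 1 counts in Dlx5CE-E12.5 replicates 1 to 3, and 3 and 14 counts in Fgfr3CE-E12.5 replicates 2 and 3. It was singled out because its largest count of 14 is above the detection floor of 3 counts, in a gene outside the members, and Fgfr3CE-E12.5 replicate 3 alone exceeded that floor.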

How the results depend on the processing

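The number of members called higher in Dlx5CE-E12.5 cells, 9 as reported, was 5 with library size only, 2 when tested against a 2-fold change (glmTreat), which is 6.9% of members against 6.53% of all genes, and 4 with the length trend removed, of which 3 were among the 9, and it was 5 to 10 when 1 library was left out, lowest without Fgfr3CE-E12.5 replicate 3. The 5 of 29 called higher in Fgfr3CE-E12.5 cells became 9 of 55 with a CPM of at least 1 and 11 of 71 with no filter. These filters let in more members, and with a CPM of at least 1, 16.6% of all genes were called in that direction. Of the same 29, 8 were called with no fold threshold, or 27.6% against 25% of all genes. Under glmTreat 3 were called, or 10.3% against 10%, and 4 to 6 were called with 1 library left out. The 6 receptors called higher in Dlx5CE-E12.5 cells became 1 under glmTreat and 3 with the length trend removed, and were 3 to 7 with 1 library left out, lowest without Fgfr3CE-E12.5 replicate 3. The 10 partner genes higher in Dlx5CE-E12.5 cells became 6 under glmTreat, or 14.6% of those tested against 6.53% of all genes. With the length trend removed they became 5, or 12.2% against 11.6%. The 10 higher in Fgfr3CE-E12.5 cells stayed between 7 and 13. Over all genes tested, 2971 were called, against 1670 under glmTreat and 4880 with no fold threshold. The causes were not tested, except that the filters and thresholds change how many genes can pass.

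The numbers 2 and 3 are shared by the lineages, but the labels do not say that they pair libraries, and the deviations of same-numbered libraries correlated at 0.13 and -0.0527. With the replicate block, 10 members were called higher in Dlx5CE-E12.5 cells and 5 in Fgfr3CE-E12.5 cells.

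Log2 fold changes that turned their sign all belong to genes that were not called. With library size only these were Plxnb1 (0.0196), Slit3 (0.0231), Efnb3 (0.13), Ephb2 (0.15), Plxna3 (0.19) and Sema3b (0.13). With the length trend removed they were Plxnb1 (0.0527), Slit2 (0.55), Ephb2 (0.35), Plxna3 (0.0798) and Robo4 (-0.0333), and with the GC trend removed Robo4 (-0.0634). With the replicate block they were Unc50 (-0.10), Ephb2 (0.34), Plxna3 (0.0412) and Robo4 (-0.16). With 1 library left out, log2 fold changes ranged from -0.55 to 0.0545 for Sema4c, -0.12 to 0.70 for Sema7a, -0.41 to 0.0064 for Slit3, -0.10 to 0.18 for Unc50, -0.22 to 0.0127 for Efnb3, -0.47 to 0.35 for Ephb2, -0.16 to 0.0802 for Plxna3, -1.33 to 0.79 for Robo4 and -0.49 to 0.21 for Sema3b. The 16 members under both filters are given by count because of the filters, and with no filter all 71 members were fitted.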
